A study of Mus musculus with 6 samples.

Results

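The genes examined were 10 that handle fat in liver cells, namely Plin2, Cidea, Cidec, Cd36, Pparg, Fabp4, Lpl, Mogat1, G0s2 and Dgat2. They were chosen as markers of fatty liver and targets of the nuclear receptor PPAR gamma, by matching each array probe's sequence accession to a RefSeq transcript of the gene. All 10 were found, each with 1 probe, among 13968 named genes. Their RNA levels were read with 1-colour oligonucleotide arrays, 1 array per liver sample, in mice of strain C57BL/6 that were 14 months old. The 3 wild-type arrays carried replicate numbers 1, 2 and 4, and the 3 transgenic arrays, from mice with human c-Src placed behind the mouse metallothionein promoter, carried 1, 3 and 4. c-Src is a tyrosine kinase and proto-oncogene. The metallothionein promoter responds to zinc, and the design text says that zinc was usually not needed to induce it. The study asked which genes lie downstream of Src in a line in which some mice develop liver tumours. No carcinogen was given, and the study left out 1 further array of each group for low signal. Tumour in the sampled pieces of liver is neither noted nor denied in the labels. The labels number the transgenic mice but do not say that the control livers came from separate mice. P-values therefore measure the spread between these samples, which may be partly technical. Each sample is called a liver below.

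Liver takes up fatty acids from blood and stores them as triglyceride in lipid droplets. Lipoprotein lipase (Lpl) releases fatty acids from circulating triglyceride, CD36 helps carry them across the cell membrane, and the fatty acid binding protein FABP4 holds them in the cytosol. MOGAT1 and DGAT2 build them into diacylglycerol and triglyceride. Perilipin 2 and the CIDE proteins coat lipid droplets and help them grow, and G0S2 inhibits the lipase that breaks their triglyceride down. PPAR gamma is scarce in lean liver, rises in fatty liver, and switches on several of these genes, most of which are better known from fat cells.

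PPAR gamma binds, with its partner RXR, to a direct repeat of AGGTCA with 1 base between the copies, AGGTCANAGGTCA. RefSeq promoter windows of build GRCm38.p6 ran from 250 bases before to 50 bases after a start site. Windows matched by symbol were used for 6 of the 10 genes, with 9 windows. None was used for Cidea, Fabp4, Lpl or Dgat2, so their promoters are not described. The repeat was searched on both strands, and the closest match in each window was taken. Windows of Plin2, Cd36 and Mogat1 held a match with 2 mismatches, and 3.86% of all 32851 windows of this length held one as close. Those 3 are shown, as the windows with the fewest mismatches among the 9, with the match in capitals. The Plin2 window is chr4:86670010-86670309 on the minus strand, the Cd36 window chr5:17835847-17836146 on the minus strand, and the Mogat1 window chr1:78510810-78511109 on the plus strand. Bases are printed in the direction of the gene, and the repeat reads on the opposite strand in Plin2 and Cd36.
Plin2: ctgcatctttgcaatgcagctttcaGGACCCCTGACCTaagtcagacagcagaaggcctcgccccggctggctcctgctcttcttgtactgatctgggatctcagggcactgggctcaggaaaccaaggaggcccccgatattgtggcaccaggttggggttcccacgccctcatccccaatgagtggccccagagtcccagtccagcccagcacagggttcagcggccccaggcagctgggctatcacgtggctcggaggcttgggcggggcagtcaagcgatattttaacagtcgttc
Cd36: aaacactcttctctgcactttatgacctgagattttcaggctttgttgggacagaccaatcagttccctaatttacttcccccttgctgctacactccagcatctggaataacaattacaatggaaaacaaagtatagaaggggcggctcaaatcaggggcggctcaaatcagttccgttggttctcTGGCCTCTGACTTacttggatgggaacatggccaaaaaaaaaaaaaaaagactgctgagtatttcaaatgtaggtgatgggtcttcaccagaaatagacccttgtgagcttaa
Mogat1: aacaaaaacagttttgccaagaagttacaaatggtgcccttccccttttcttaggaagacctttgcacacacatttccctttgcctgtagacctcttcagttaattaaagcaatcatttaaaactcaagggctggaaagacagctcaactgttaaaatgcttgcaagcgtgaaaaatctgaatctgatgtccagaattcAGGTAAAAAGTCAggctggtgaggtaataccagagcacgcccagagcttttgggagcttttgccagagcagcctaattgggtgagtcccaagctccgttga
The capitals begin 225 bases before the start site in Plin2, 63 before it in Cd36 and 51 before it in Mogat1. The closest match had 3 mismatches in G0s2 and in 1 of 2 Cidec windows, and 24.6% of all windows held a match with 3 or fewer. It had 4 in the other Cidec window and in the 3 Pparg windows, and 79.8% of all windows held one with 4 or fewer. A match of letters is a description of the sequence, not a measured binding site.

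The median probe signal ran from 53.8 to 93.4 on the wild-type arrays and from 94.8 to 117 on the transgenic arrays, so levels are given after quantile normalization, as log2 signal, unless stated. The number of arrays limits the precision. Src itself had a log2 change of 1.79 ± 0.51 (SE), with no overlap of the groups, although limma's adjusted p was 0.69, and whether this mouse probe also reads the human transcript is not given. All 8 tested hepatocyte markers lay above background on all 6 arrays, as the liver label requires. Transgenic replicate 4 stood apart from the others. Of 4 Y-linked genes tested, 3 (Eif2s3y, Uty and Ddx3y) stayed under the background threshold there and exceeded it on the other 5 arrays. The remaining gene, Kdm5d, went the other way, with 9.03 on transgenic replicate 4 and 8.32 to 8.74 on the other 5 arrays. On transgenic replicate 4 the mean of 13 female-biased liver genes minus that of 12 male-biased ones was 1.52, against -2.40 and -3.24 on transgenic replicates 1 and 3 and -4.66 to -4.51 on the wild-type arrays. The labels give no sex. Values without that array are given with the results.

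None of the 10 genes passed limma's test over 34175 features. Their adjusted p ran from 0.69 to 0.98, and limma called 0 features in all (0%, at an adjusted p under 0.05). In none of the 10 did the 3 transgenic livers lie wholly outside the 3 wild-type livers, whereas 16% of all features separated in this way, 10.1% as higher and 5.9% as lower. Over all features 2424 had an unadjusted limma p under 0.05. Of the 10 genes, Lpl alone had an unadjusted limma p under 0.05 (0.046), on the higher side, where 4.37% of all features did so and 2.72% on the lower side. The log2 change was positive for 7 of the 10, against 51.7% of all features, and with median scaling in place of quantile normalization it was positive for 4. Its median over the 10 was 0.21, against 0.02 over all features. With median scaling the median was -0.08 over the 10 and -0.08 over all features. Without transgenic replicate 3 it was -0.01 over the 10 and 0.03 over all features. Exact two-sided permutation tests of single genes gave p of 0.2 to 1, where 0.1 is the smallest that 3 against 3 allows. Each gene is therefore described below by its levels and by the interval of its change.

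**Figure D1:**
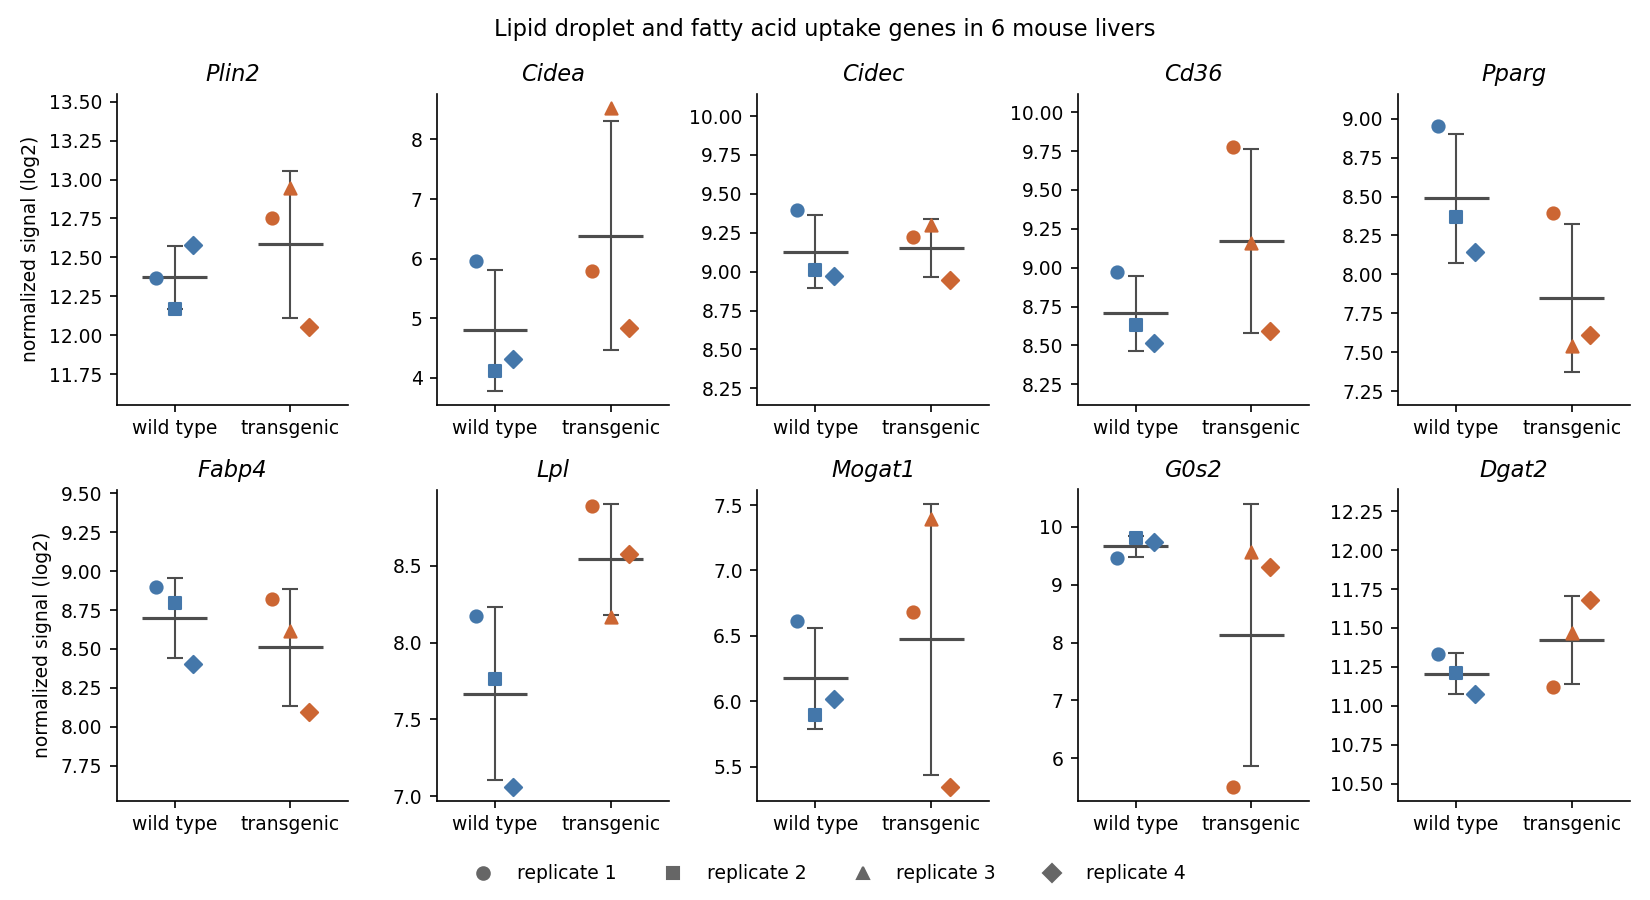
Normalized log2 signal of the 10 genes (1 panel each) in 3 wild-type (blue) and 3 transgenic livers (orange); symbols give the replicate number, horizontal lines the group mean and bars the SD. The panels have separate scales of at least 2 log2 units, and in every panel the groups overlap, with a single liver far from the rest in Cidea (8.53 on transgenic replicate 3) and G0s2 (5.51 on transgenic replicate 1).

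Pparg, which encodes the receptor, gave lower values in transgenic than in wild-type livers on average. Its log2 signal was 8.95, 8.37 and 8.14 on wild-type replicates 1, 2 and 4, and 8.39, 7.54 and 7.61 on transgenic replicates 1, 3 and 4. Transgenic replicates 3 and 4 lay below every wild-type liver, and replicate 1 lay among them. The means were 8.49 ± 0.42 and 7.85 ± 0.47 (SD, n = 3 each), and the log2 change was -0.64 ± 0.34 (SE), with a 95% interval of -1.46 to 0.18. Wild-type livers were 1.56-fold higher, and limma's adjusted p was 0.69. The change ran from -0.91 without transgenic replicate 1 to -0.41 without wild-type replicate 1. Correction for local brightness of the array surface brought it to -0.34.

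Lpl, the lipase that frees fatty acids from plasma triglyceride and is low in adult hepatocytes, had the smallest p of the 10. It read 8.18, 7.76 and 7.06 in the wild-type livers (replicates 1, 2 and 4) and 8.89, 8.16 and 8.57 in the transgenic livers (replicates 1, 3 and 4). Transgenic replicate 3 lay just under the highest wild-type liver, and the others lay above all 3. The means were 7.67 ± 0.56 and 8.54 ± 0.36 (SD, n = 3 each), a log2 change of 0.87 ± 0.35 (SE) or 1.83-fold, with a 95% interval of 0.02 to 1.73. It did not pass over all features (limma, adjusted p = 0.69), and 6.55% of features had a smaller p. Lpl kept a positive change under all 17 alternatives, with values of 0.57 to 1.13 when single arrays were left out, the lowest of these without wild-type replicate 4. Over the 17 alternatives its unadjusted limma p ran from 0.022 to 0.14 and its adjusted p from 0.58 to 0.85. As deposited, before scaling, its signal was 143 to 187 in wild-type and 355 to 507 in transgenic livers, with no overlap. Divided by the authors' constant for each array, it was 1.53 to 3.39 against 3.19 to 5.35, and the groups overlapped.

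Cd36, the fatty acid translocase, read 8.97, 8.63 and 8.51 in wild-type replicates 1, 2 and 4 and 9.77, 9.16 and 8.59 in transgenic replicates 1, 3 and 4. Transgenic replicates 1 and 3 lay above every wild-type liver, by most in replicate 1, which was 2.10-fold above the wild-type mean. Replicate 4 lay inside the wild-type range. The log2 change was 0.47 ± 0.34 (SE) with a 95% interval of -0.36 to 1.29 (limma, adjusted p = 0.73). Without transgenic replicate 1 it was 0.17, and without replicate 4 it was 0.76.

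Fabp4, a fatty acid binding protein of fat cells, macrophages and capillary endothelium, had a small change. It read 8.90, 8.79 and 8.41 in wild-type livers (replicates 1, 2 and 4) and 8.82, 8.62 and 8.09 in transgenic livers (replicates 1, 3 and 4). Transgenic replicate 4 was the lowest of the 6, and the other transgenic livers lay inside the wild-type range. The log2 change was -0.19 ± 0.27 (SE), with a 95% interval of -0.84 to 0.47 (limma, adjusted p = 0.85). Without transgenic replicate 4 it was 0.02, so the sign of the change rested on that array.

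The enzymes of triglyceride synthesis gave small average changes with different patterns among livers. Mogat1, which makes diacylglycerol from monoacylglycerol and is low in lean adult liver, read 6.61, 5.90 and 6.02 in wild-type and 6.68, 7.39 and 5.35 in transgenic livers. All 6 signals were above background, although on transgenic replicate 4 the signal was 51.1 against a threshold of 50.6. Transgenic replicate 3 was the highest and replicate 4 the lowest of all 6 livers, and their SD was 1.04 in transgenic against 0.38 in wild-type livers. The log2 change of Mogat1 was 0.30 ± 0.54 (SE), with a 95% interval of -1.01 to 1.61 (limma, adjusted p = 0.88). It was 0.86 without transgenic replicate 4 and -0.16 without replicate 3.

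Dgat2, the main enzyme for the last step of triglyceride synthesis in liver, was read at 11.34, 11.21 and 11.07 in wild-type and 11.12, 11.47 and 11.68 in transgenic livers. Transgenic replicates 3 and 4 lay above the wild-type range and replicate 1 inside it. Dgat2 was the only 1 of the 10 with its highest value on transgenic replicate 4. For Dgat2 the log2 change was 0.22 ± 0.22 (SE), with a 95% interval of -0.32 to 0.76 (limma, adjusted p = 0.79). It turned to -0.07 with median scaling and to -0.05 after local correction. In fold terms that interval runs from 0.80 to 1.69.

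Of the droplet coat genes, Plin2 encodes perilipin 2, the main coat protein of liver droplets. It read 12.37, 12.17 and 12.58 in wild-type and 12.75, 12.95 and 12.05 in transgenic livers. Transgenic replicates 1 and 3 were the highest and replicate 4 the lowest of the 6. Plin2 had a log2 change of 0.21 ± 0.29 (SE), with a 95% interval of -0.50 to 0.92, or 0.71-fold to 1.89-fold (limma, adjusted p = 0.84). Spots around the Plin2 spot were unusually bright or dim on 3 arrays, deviating by 0.99 on wild-type replicate 2, -0.53 on wild-type replicate 4 and -0.70 on transgenic replicate 4. The spots of the other 9 genes lay in no such patch. Local correction gave Plin2 a change of 0.46, leaving out transgenic replicate 4 gave 0.48, and median scaling gave -0.14.

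Cidea, a droplet fusion protein abundant in brown fat and induced in fatty liver, was near background in most livers. Its signal exceeded background on 1 wild-type and 2 transgenic arrays. The log2 values were 5.97, 4.12 and 4.32 in wild-type and 5.79, 8.53 and 4.83 in transgenic livers. On transgenic replicate 3 the deposited signal was 453, against 39.0, 16.1 and 19.5 on the wild-type arrays, of which the latter pair were under background, so no fold is given. Transgenic replicates 1 and 4 lay inside the wild-type range. The log2 change was 1.58 ± 1.02 (SE), with a 95% interval of -0.89 to 4.06 (limma, adjusted p = 0.72), and without transgenic replicate 3 it was 0.51. The SD among transgenic livers was 1.92, and 3.29% of all features had a larger one. On the same array the brown fat gene Dio2 read 8.33 against 5.60 to 6.20 on the other 5, while Ucp1, which defines brown fat, was not above background there. Of 6 brown fat markers, 1 lay above background on all arrays, and their summed signal was 2286 on that array, 413 and 1603 on the other transgenic arrays and 1351 to 1938 on the wild-type arrays, most of it, save on transgenic replicate 4, from Elovl3, which liver also makes. The part of such cells in the Cidea value was not tested.

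Cidec, the related fusion protein of large droplets, had the smallest difference of group means among the 10. It read 9.40, 9.01 and 8.97 in wild-type and 9.22, 9.30 and 8.94 in transgenic livers. Transgenic replicates 1 and 3 lay inside the wild-type range and replicate 4 just below it. The means were 9.13 ± 0.23 and 9.15 ± 0.19 (SD, n = 3 each), and the log2 change was 0.03 ± 0.22 (SE). The 95% interval of -0.50 to 0.56 corresponds to 0.71-fold to 1.47-fold, and limma's adjusted p was 0.98. On transgenic replicate 3, where Cidea had its highest value, Cidec was 1.13-fold above its wild-type mean.

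G0s2, the inhibitor of the triglyceride lipase PNPLA2 (ATGL), was the reverse case, with 1 liver far below the rest. It read 9.45, 9.80 and 9.73 in wild-type and 5.51, 9.57 and 9.31 in transgenic livers. Transgenic replicate 1 was 17.7-fold under the wild-type mean, with a signal of 49.2, above that array's background threshold of 38.2. Replicate 3 lay inside the wild-type range and replicate 4 just under it. Across groups the log2 change was -1.53 ± 1.07 (SE), with a 95% interval of -4.12 to 1.06 (limma, adjusted p = 0.73), and without transgenic replicate 1 it was -0.22. The wild-type SD was 0.18 and the transgenic SD 2.27, and 2.28% of all features had a larger transgenic SD. With 1 probe for the gene, a defect of that spot and a low transcript cannot be told apart. The spots around it on that array deviated by 0.12.

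**Figure D2:**
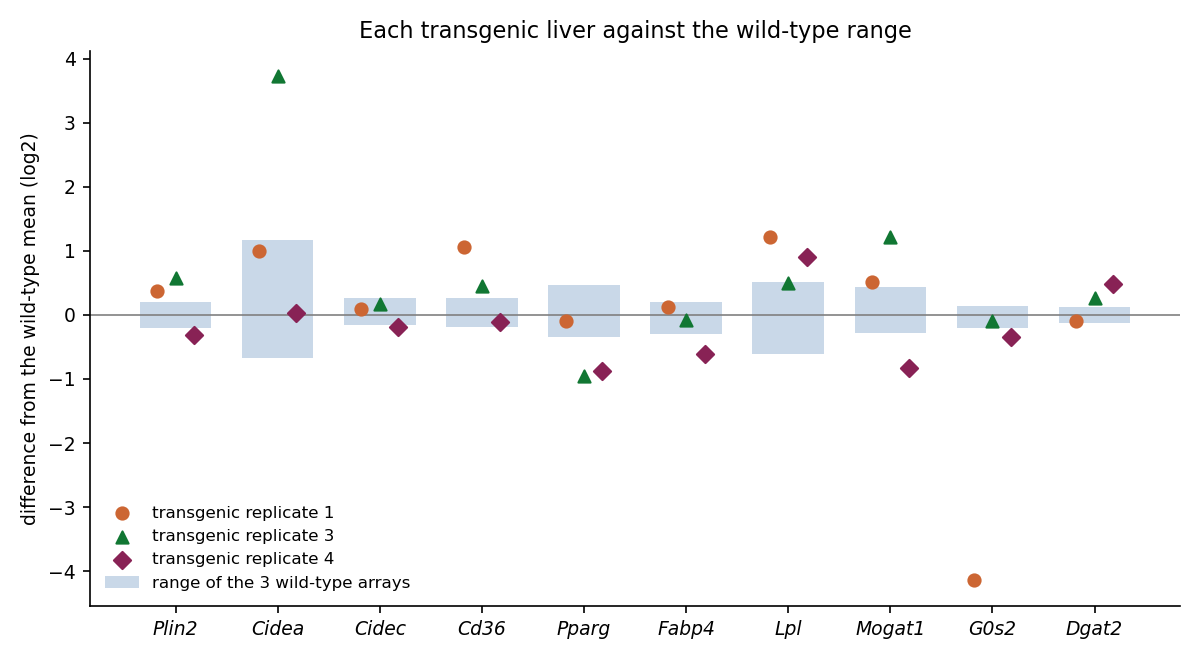
Difference of each transgenic liver from the wild-type mean (log2) for the 10 genes; shaded boxes span the 3 wild-type livers. Transgenic replicate 3 rises above the box for 5 genes, replicate 4 falls below it for 6, and the points farthest from 0 are Cidea on replicate 3 (3.73) and G0s2 on replicate 1 (-4.14).

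Liver by liver, none of the 10 genes lay outside the wild-type range on the same side in all 3 transgenic animals. Transgenic replicate 3 lay above the wild-type range for 5 of the 10 genes (Plin2, Cidea, Cd36, Mogat1 and Dgat2), where 25.3% of all features did, and below it for Pparg alone, where 26.1% did. Transgenic replicate 1 lay above the range for 4 genes (Plin2, Cd36, Lpl and Mogat1; 28.7% of all features) and below it for G0s2 alone (17.5%). Transgenic replicate 4 lay below the range for 6 genes (Plin2, Cidec, Pparg, Fabp4, Mogat1 and G0s2; 26.8% of all features) and above it for Lpl and Dgat2 (27.6%). The median difference of the 10 genes from the wild-type mean was 0.25, 0.36 and -0.25 on transgenic replicates 1, 3 and 4, where all features had 0.08, -0.04 and -0.02. The SD was larger among transgenic than wild-type livers for 8 of the 10, the exceptions being Cidec and Lpl, and for 44.2% of all features. Without transgenic replicate 4, the log2 change was positive for 8 of the 10, with 0 genes passing. Its median over the 10 was then 0.30, against 0.03 over all features. The change without that array was 2.36 for Cidea, 0.13 for Cidec, -0.52 for Pparg, 0.86 for Lpl, -2.12 for G0s2 and 0.09 for Dgat2. The part of sex-biased expression in these values was not tested.

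**Figure D3:**
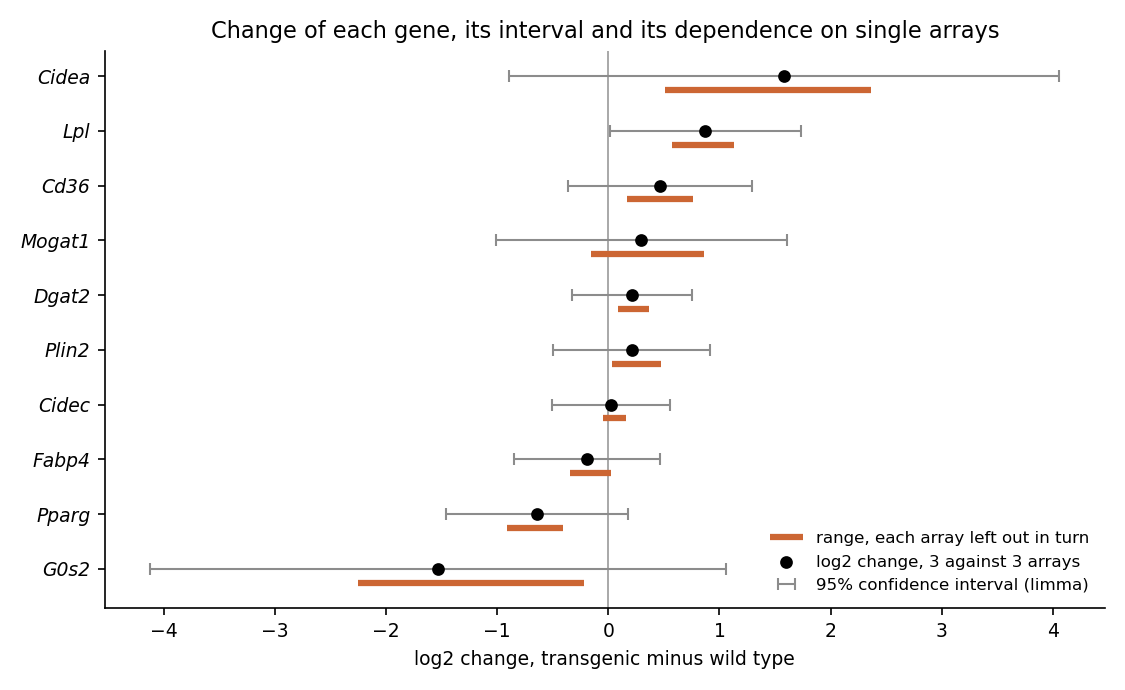
Log2 change (transgenic minus wild type) of the 10 genes with its 95% confidence interval from limma (grey) and the range of values when each of the 6 arrays is left out (orange). The interval of Lpl, 0.02 to 1.73 without adjustment for the number of features, is the only one above 0, and the ranges of Mogat1, Cidec and Fabp4 cross 0.

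Other genes of the same processes were taken from 6 lists holding 106 genes, of which 92 were tested. None passed in either direction (limma, adjusted p under 0.05), 2 had an unadjusted p under 0.05 on the higher side and 1 on the lower side, and 42 changes were positive against 50 negative. The groups did not overlap for 7 genes as higher and 10 as lower, where all features gave 10.1% and 5.9%. The median change over the 92 genes was -0.04.

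For uptake and plasma lipolysis, 11 of 20 tested genes had positive changes, with a median of 0.02. The fatty acid transporter gene Slc27a1 had 0.52 ± 0.26 (SE), with no overlap of the groups, and the VLDL receptor gene Vldlr 0.55 ± 0.31. For droplet coat and assembly, 6 of 12 were positive, with a median of 0.02. Plin4, a perilipin of fat and muscle above background on 2 wild-type and 3 transgenic arrays, had 1.08 ± 0.31, and its 3 transgenic livers (6.20 to 7.15) lay above its wild-type livers (5.54 to 5.86). The other Plin4 probe gave 0.29 ± 0.63 with overlapping groups, and local correction brought the first to 0.51. Plin3, a perilipin of many tissues that was near background here, had -0.52 ± 0.31 without overlap, and Hsd17b11 had 0.30 ± 0.31.

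For triglyceride synthesis, 7 of 14 were positive, with a median of -0.01. Acsl1, which activates fatty acids, had 0.38 ± 0.19 (SE) without overlap, Lpin3, above background on 2 wild-type arrays and 1 transgenic array, -0.69 ± 0.31, and Agpat2, an acyltransferase of the phosphatidic acid step, -0.41 ± 0.29, which turned to 0.11 after local correction. For triglyceride breakdown, 5 of 11 were positive, with a median of -0.02. Aadac, an esterase of the endoplasmic reticulum, had -0.63 ± 0.26, and Pnpla2, the lipase that G0S2 inhibits, had -0.29 ± 0.20, both without overlap, while the carboxylesterase gene Ces1d had 0.49 ± 0.29. Limma's adjusted p was 0.69 to 0.79 for the genes named here and in the lists of uptake and coat genes.

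Of the partners of PPAR gamma and other regulators, 13 of 21 had negative changes, with a median of -0.21. The groups did not overlap for 6 of them as lower (5.9% of all features) and for 1 as higher (10.1%), Cebpb, an early factor of fat cell formation, with 0.56 ± 0.29 (SE). Ppargc1b, a coactivator of nuclear receptors, had -0.63 ± 0.26 (SE) and read 8.25 to 8.59 in wild-type and 7.38 to 8.08 in transgenic livers. Cebpa, a factor that acts with PPAR gamma in fat cells and maintains hepatocyte genes, had -0.51 ± 0.22 and read 10.35 to 10.87 in wild-type and 9.96 to 10.13 in transgenic livers. Srebf1, a regulator of fatty acid synthesis, had -0.71 ± 0.37 with overlapping groups. For each of these limma's adjusted p was 0.69. Among other PPAR gamma targets, 5 of 14 were positive, with a median of -0.07. Cyp4a14, a fatty acid hydroxylase that PPAR alpha also drives and that is female-biased in liver, had 1.61 ± 0.36 and read 10.17 to 10.43 against 11.19 to 12.52. The fat cell hormone gene Adipoq had -0.92 ± 0.42, from 1 array above background in each group, and the glycerol channel gene Aqp7 -0.81 ± 0.36, above background on no array.

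**Figure D4:**
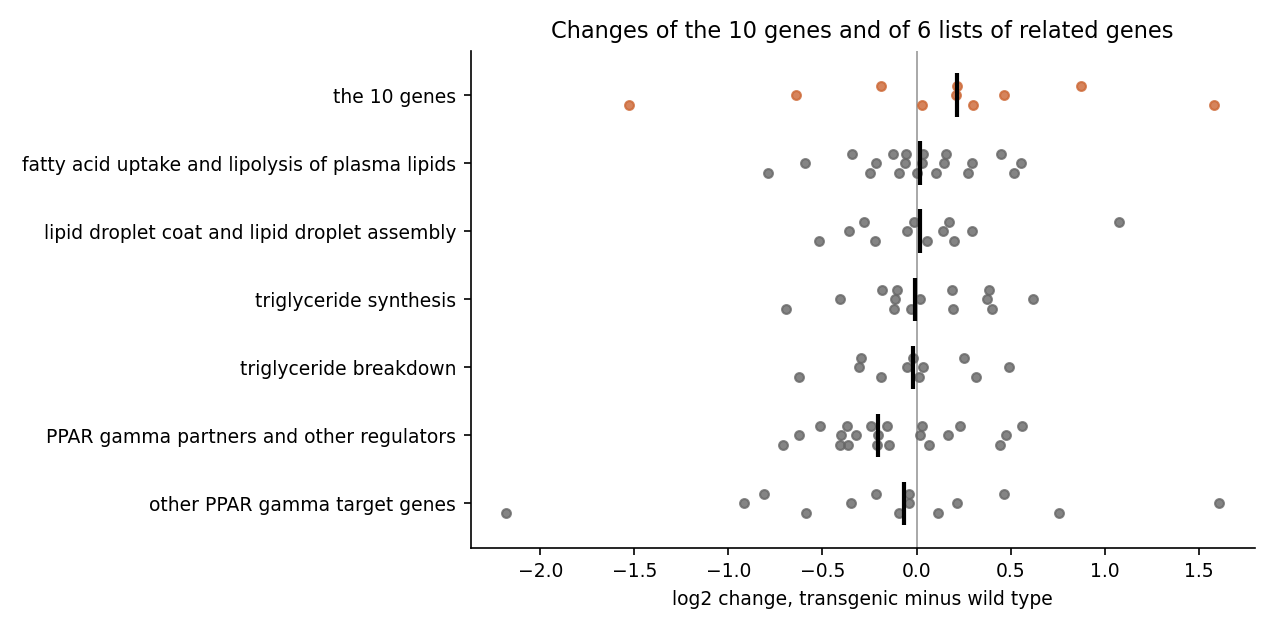
Log2 change (transgenic minus wild type) of the 10 genes (orange) and of the tested genes of 6 lists of related genes (grey), 1 point per gene; vertical black bars are medians. The medians of the lists lie between -0.21 (regulators) and 0.02, and that of the 10 genes at 0.21.

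Several of the 10 genes are also made by cells other than hepatocytes, and in bulk liver fewer cells of a type and less RNA per cell cannot be told apart. Of 9 tested fat cell markers, 4 lay above background on all 6 arrays and Lipe on none, and Adipoq did so on 1 array of each group. Their summed signal was 13593 to 17656 in wild-type and 7602 to 19009 in transgenic livers, where Car3, which hepatocytes also make, contributes most. The 8 macrophage markers summed to 5598 to 6813 in wild-type and 5984 to 10871 in transgenic livers, highest on transgenic replicate 4. On that array Lpl was 1.88-fold, Cd36 0.92-fold and Fabp4 0.66-fold of the wild-type mean. Of the macrophage markers 7 of 8 had positive changes, with a median of 0.11, where 51.7% of all features were positive. For Marco, Cd5l, C1qa and C1qb the positive sign rested on transgenic replicate 4. Their differences from the wild-type mean were 0.37 to 1.21 there and -0.49 to -0.02 on transgenic replicates 1 and 3. Vsig4 lay above its wild-type mean on replicates 1 and 4 and below it on replicate 3. Lyz2 and Cd14 lay above theirs on every transgenic array. Cd14, a receptor for bacterial lipopolysaccharide, had 1.91 ± 0.73 (SE; limma, adjusted p = 0.69) and read 5.72 to 6.45 in wild-type and 6.80, 9.69 and 7.62 in transgenic replicates 1, 3 and 4, with no overlap. Its spot lay in a bright patch on transgenic replicate 3, where the surrounding spots deviated by 1.16. On wild-type replicate 4, its lowest reading, they deviated by -0.54. On transgenic replicate 1, where Lpl was highest (2.33-fold), the macrophage sum was 5984, inside the wild-type range. The 9 endothelial markers summed to 3241 to 4139 and 2908 to 3758, and 8 of 9 had negative changes, with a median of -0.18. Of 9 muscle markers, 1 lay above background on all arrays and 4 on none. The 10 stellate cell and fibroblast markers summed to 3092 to 4402 and 3180 to 4628. The part of these cells in the levels of Lpl, Cd36 and Fabp4 was not tested.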

How the data were processed

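Per the labels' protocols, poly(A)+ RNA within total RNA of the 6 liver samples was amplified linearly to biotin cRNA, and Alexa-647 streptavidin was the label. The deposited intensity of each spot is a linear signal from which background was removed, per the file headers. A second deposited intensity is the first over a constant for the array. The authors' value table repeats that second intensity for all 34967 mouse probes, with column medians of 0.998 to 0.999. The scanner is not named in the labels or headers. The 620 control spots were left out.

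Each array had a floor at percentile 1 of its positive signals (4.72 to 5.75), and floored signals were taken to log2 and quantile normalized. Accessions, without versions, were matched to the RefSeq table of GRCm38.p6, which named 14760 probes for 13968 genes and left 20207 unnamed. The brightest probe stood for a gene. The background threshold (33.0 to 50.6) came from 570 dark control spots, as their median and 3 scaled median absolute deviations, and 62.6% to 71.7% of probes exceeded it. The test of transgenic against wild type was limma (version 3.58.1, R 4.3.3; two-sided, Benjamini-Hochberg over 34175 features, SE moderated), with an exact permutation test for single genes. Tested probe by probe over 34967 probes, 1 probe passed and none of the 10 genes' probes did. A patch is where spots within 4 rows and columns deviated, by median, by over 0.5 from the mean of the 6 arrays. The limma fit alone was also run on simulated data, with independent normal noise and changes planted equally in all transgenic arrays. Outlying single arrays and patches were not simulated, so that run cannot speak to them. Figures were drawn with matplotlib 3.10.9.

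The genes and lists were chosen with earlier results of these data known. The rule named the 10 genes, up to 3 genes of each list with the smallest p, Src, Mt1 and Mt2, and markers where needed; Cebpb, Cd14, Dio2, Ucp1, Elovl3 and Car3 were named after their values were seen. The values of 1 gene that the rule named are not reported here. The metallothionein genes Mt1 and Mt2 had log2 changes of 3.71 and 4.88. Alternatives were other floors, offsets, scalings, filters, spread models, array weights, the authors' table, probe means, local correction, a replicate block and each array left out.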

Additional observations from a re-analysis of the deposited data

How the results depend on the processing

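None of the 10 genes and none of the 92 related genes passed under any of the 17 alternatives, and over all features 0 to 1 passed when single arrays were left out, with 1 feature without wild-type replicate 1 and 1 without transgenic replicate 4. Cd36, Pparg, Lpl and G0s2 kept the sign of their change under all 17, and Cidea under the 16 that tested it, since filtering to probes above background on all arrays removed it. The number of positive changes went from 7 to 4 with median scaling, which turned Plin2 to -0.14, Cidec to -0.093 and Dgat2 to -0.072. Under median scaling the median change of all features was itself -0.078, against 0.016 in the main fit. Local correction turned Cidec to -0.064, Dgat2 to -0.052 and the related gene Agpat2 to 0.11. Leaving out single arrays gave -0.049 to 0.16 for Cidec, -0.16 to 0.86 for Mogat1 and -0.34 to 0.020 for Fabp4. Replicate numbers 1 and 4 occur in both groups. With the replicate block, in which only those 4 arrays bear on the change, 4 changes were positive, and the median of all features was 0.027. Plin2 had -0.071, Cidec -0.10, Mogat1 -0.30 and Lpl 1.11. With the block 1348 features had an unadjusted limma p under 0.05, against 2424 in the main fit. The block leaves fewer residual degrees of freedom, so these counts are not like for like. Deviations of same-numbered arrays correlated at 0.06 for both numbers, and nothing in the labels says that a number marks a shared litter or day. The cause of these shifts was not tested. Signals near background limit Cidea and, on 1 array, Mogat1.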
